A study of Sus scrofa domesticus with 30 samples.

Results

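The cytosolic ribosomal protein genes were examined in the endometrium, the lining of the uterus, of pregnant young female pigs (gilts). They were defined by gene symbol: symbols that start with RPL or RPS and a number, with RPSA, RPLP0, RPLP1 and RPLP2, but without the ribosomal S6 kinases and RPS19BP1. Of 84 such entries among the 28224 gene models of the mRNA table, 82 lay above the floor value of 1 in at least 7 libraries, and each of these 82 did so in all 15. They comprise 45 large subunit genes, 31 small subunit genes and 6 paralogues, which are related genes named after a ribosomal protein gene with a closing L (RPL3L, RPL36AL, RPS27L) or L1 (RPL7L1, RPL22L1, RPL26L1). The 2 entries left out were RPL10L, above the floor in 1 library, and a further entry named RPL18 on chromosome 1, above it in 3 libraries.

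The libraries came from 7 low iCrit and 8 high iCrit gilts, crossbred from Landrace, Yorkshire and Duroc. The immunocrit (iCrit) is a blood measure of the immunoglobulin that a newborn piglet has absorbed from colostrum, and the study asked whether the adult uterus differs when that intake was low. All gilts were inseminated as adults and sampled on pregnancy day 13 from the middle of the uterine horn, so every animal was pregnant; 1 more low iCrit animal had been removed because it had not conceived. The labels give every animal the same day for creep feed, for weaning and for the breeding area, so these recorded days do not differ between the groups. The groups differ in natural intake, not by a treatment, and litter and sire are not given in the labels. Barcoded libraries from each group were pooled for sequencing, and if each group had its own pool, pool and group cannot be told apart. A library held an estimated 23.7 to 63.4 M reads (M for mega), and the ribosomal protein genes took 2.95% to 4.31% of the summed signal in 14 libraries and 5.64% in high iCrit replicate 7.

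Ribosomes are built from ribosomal RNA and one copy or a few copies of each ribosomal protein. The small subunit reads the messenger RNA, and the large subunit joins amino acids into protein. Ribosomal protein mRNAs belong to the 5′ terminal oligopyrimidine (TOP) mRNAs, whose translation is governed by the growth-sensing kinase mTOR through LARP1. On pregnancy day 13 the pig endometrium secretes protein into the uterine lumen, where the conceptuses elongate.

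Ribosomal protein mRNA levels varied between libraries as a block. Each gilt gave 1 library, so animal and library preparation cannot be told apart. On the scale of log2(value + 1), where changes of low values look smaller than they are, each gene was set against the gene's mean over all libraries. The mean of these deviations over the 76 large and small subunit genes ranged from -0.37 to 0.01 in the low iCrit group, with a median of -0.15, and from -0.11 to 0.71 in the high iCrit group, with a median of 0.09. The 2 groups overlapped, with 3 low iCrit gilts (replicates 1, 5 and 6) above the lowest high iCrit gilt. Low iCrit replicate 4 was the lowest at -0.37 and low iCrit replicate 3 stood at -0.27, and in both 0 of 76 genes lay above their own mean. High iCrit replicate 7 was the highest at 0.71, with 76 of 76 genes above their mean, followed by high iCrit replicates 4, 1 and 3 at 0.28, 0.19 and 0.17. High iCrit replicates 2, 6 and 8, at -0.10, -0.06 and -0.11, lay within the low iCrit range.

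**Figure D1:**
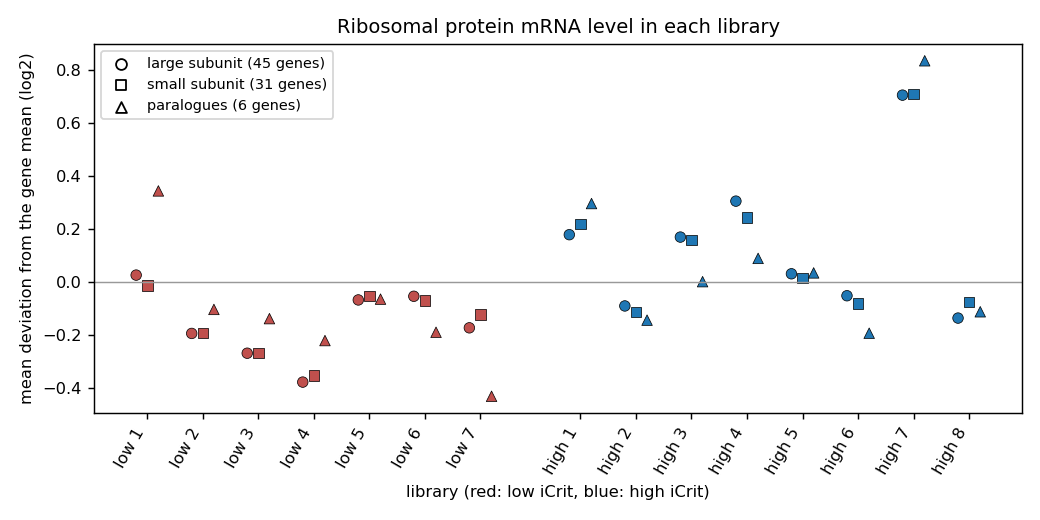
Mean deviation of log2(value + 1) from each gene's mean, for large subunit genes (circles), small subunit genes (squares) and paralogues (triangles), in 7 low iCrit libraries (red) and 8 high iCrit libraries (blue). Circles and squares lie close together in every library, and high iCrit replicate 7 stands above the others at 0.71 for both subunits.

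Large and small subunit genes moved together across libraries. The large subunit mean minus the small subunit mean lay between -0.06 and 0.06 on the log2 scale in every library, while the 2 means themselves spanned from -0.38 to 0.71. The SD of the library means was 0.13 in the low and 0.27 in the high iCrit group on the log2 scale (n = 7 and 8), and 0.16 in the high iCrit group without replicate 7. On the value scale 75 of 76 genes had a smaller SD in the low iCrit group, against 53.4% of all tested genes. Without high iCrit replicate 7 these were 64 of 76 and 47%. The means of these genes were also lower in the low iCrit group, and an SD on the value scale depends on the mean. As a percent of the mean, the median SD over all libraries was 11.3% in the low and 21.5% in the high iCrit group. Since these genes vary together, the 75 are not independent observations. High iCrit replicate 7 held the highest value of 75 of 76 genes, or 98.7%, against 14.9% of all tested genes, and low iCrit replicate 4 held the lowest of 55, or 72.4%, against 4.12%. Some other genes went the other way in high iCrit replicate 7. It held the lowest value of any library for MDN1 (746.8), POLR1A (421.0) and MTOR (1693). RNA integrity is given only as a lower limit shared by all libraries, and the part of RNA quality was not tested.

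In the large subunit RPLP1 had the widest difference; positions are given in the Sscrofa11.1 build. RPLP1, which with RPLP2 forms the acidic stalk that recruits elongation factors (chromosome 1, 167296084 to 167298264), had values of 13611 to 18393 with a median of 17185 in the low iCrit group, and of 16554 to 33103 with a median of 19997 in the high iCrit group. Of the low iCrit gilts, 3 lay below every high iCrit gilt and the rest fell within the high iCrit range. Its mean was 16437 ± 1809 in the low and 22011 ± 5632 in the high iCrit group (SD, n = 7 and 8), and the log2 difference was -0.39 ± 0.15 (SE; adjusted p by limma 0.672).

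RPL28 (chromosome 6, 59556586 to 59559337) ranged from 7775 to 11512 with a median of 8112 in the low iCrit group, and from 9395 to 16799 with a median of 11051 in the high iCrit group. Here 4 of 7 low iCrit gilts lay below every high iCrit gilt, and all 7 lay below the high iCrit mean. The log2 difference was -0.37 ± 0.13 (SE; adjusted p by limma 0.672).

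RPLP2 (chromosome 2, 507891 to 509818), the partner of RPLP1 in the stalk, had a mean of 10380 ± 1267 in the low and 13375 ± 3311 in the high iCrit group. RPL13 (chromosome 6, 410923 to 413396), which lay under the high iCrit mean in all 7 of the low iCrit gilts, had means of 9365 ± 1364 and 12012 ± 2763 in the low and high iCrit groups. RPL23A (chromosome 12, 44956851 to 44960737), which lines the exit of the peptide tunnel where the signal recognition particle docks, had means of 16612 ± 1955 and 21255 ± 4152 in the low and high iCrit groups. Each of these 3 had a log2 difference of -0.34.

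At the other end of the large subunit were RPL23 and RPLP0. RPL23 (chromosome 12, 23279965 to 23285538), which can bind the p53 regulator MDM2, ranged from 11350 to 17280 in the low iCrit group (median 13784) and from 12889 to 23643 in the high iCrit group (median 16078). The groups overlapped widely, with a log2 difference of -0.21 ± 0.14 (SE; adjusted p by limma 0.778), and of -0.13 without high iCrit replicate 7. RPLP0 (chromosome 14, 40219196 to 40223943), the base on which RPLP1 and RPLP2 sit, had means of 31940 ± 3795 in the low and 38226 ± 8095 in the high iCrit group, a log2 difference of -0.24 ± 0.14, and of -0.16 without high iCrit replicate 7.

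In the small subunit RPS10 (chromosome 7, 30435146 to 30442791), which lies near the mRNA entry and is marked with ubiquitin when ribosomes collide, had the largest difference. Its values ran from 12489 to 15444 in the low iCrit group (median 13576) and from 14476 to 30074 in the high iCrit group (median 17065). Of the low iCrit gilts 5 were below every high iCrit gilt, and 7 of 7 were below the high iCrit mean. The log2 difference was -0.42 ± 0.14 (SE; adjusted p by limma 0.672), and -0.32 without high iCrit replicate 7, which held the value of 30074.

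RPS14 (chromosome 2, 151430047 to 151433951), the gene whose loss underlies the anemia of the human 5q- syndrome, had means of 14434 ± 1508 in the low and 18956 ± 4405 in the high iCrit group, a log2 difference of -0.37 ± 0.14. RPS26 (chromosome 5, 21431656 to 21433691), which contacts the mRNA at the exit site, had means of 9813 ± 1116 and 12783 ± 3288 in the low and high iCrit groups, with a log2 difference of -0.36 ± 0.14. RPS28 and RPS4X each differed by -0.35, and for RPS28 the lowest high iCrit gilt lay above 6 of the 7 low iCrit ones. RPS28 ranged from 6743 to 8990 in the low iCrit group and from 8718 to 16759 in the high iCrit group.

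The smallest differences of the small subunit were in RPS27 and RPS25. RPS27 (chromosome 4, 95697869 to 95699481) had means of 7043 ± 764.4 in the low and 8143 ± 1822 in the high iCrit group, and RPS25 (chromosome 9, 46237911 to 46242174), needed for initiation at several viral internal entry sites, 11311 ± 1351 and 13061 ± 2853. Both had a log2 difference of -0.19 ± 0.13 (SE), which was -0.10 for RPS27 and -0.11 for RPS25 without high iCrit replicate 7.

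**Figure D2:**
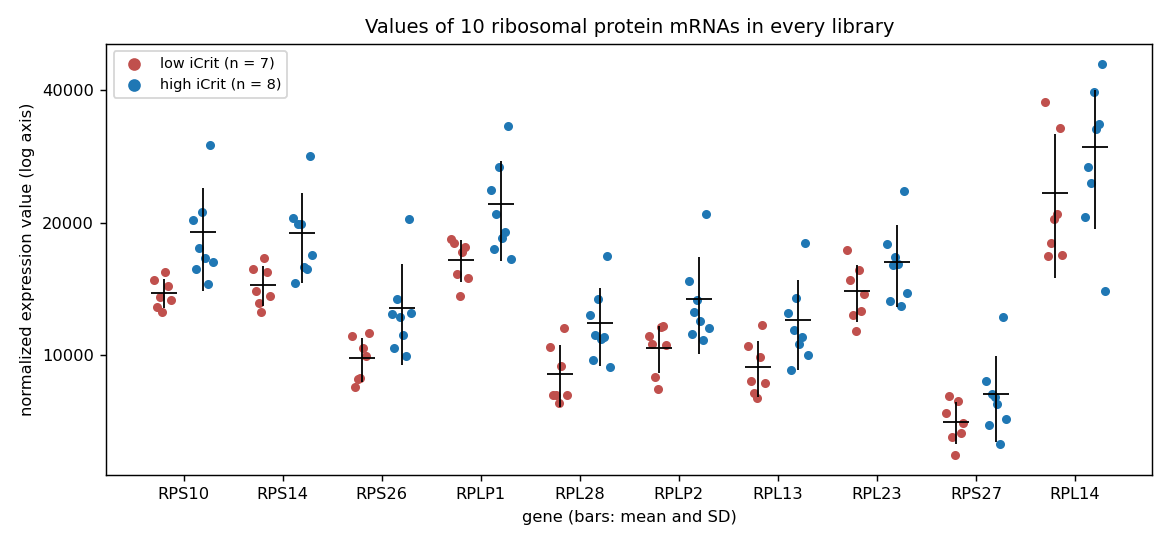
Normalized expression values (log axis) of 10 ribosomal protein genes in 7 low iCrit (red) and 8 high iCrit (blue) gilts, with mean and SD as black bars. The groups overlap in each gene, the highest point of RPS10 (30074) is high iCrit replicate 7, and RPL14 has a wide spread in both groups.

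Some members are known for roles beyond their place in the ribosome. RPSA, also a laminin receptor precursor (chromosome 13, 24072551 to 24081536), ranged from 14810 to 19095 in the low and from 16500 to 24724 in the high iCrit group, with a log2 difference of -0.24 ± 0.11. RPS6, the substrate of the S6 kinases that gave them their name (chromosome 1, 203444360 to 203447643), had means of 16848 ± 3685 in the low and 21499 ± 5823 in the high iCrit group and a log2 difference of -0.34 ± 0.18. RPL5 (chromosome 4, 124359786 to 124367612) and RPL11 (chromosome 6, 81523510 to 81526925) hold MDM2 in check when ribosome assembly fails. RPL5 had means of 24895 ± 2158 and 30266 ± 5753, and RPL11 of 12634 ± 1268 and 15138 ± 2798, in the low and high iCrit groups. Their log2 differences were -0.27 ± 0.13 and -0.25 ± 0.12, and limma gave adjusted p of 0.700 for RPSA, 0.728 for RPS6, 0.704 for RPL5 and 0.707 for RPL11.

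Over all members the difference was uniform in direction and modest in size, and no gene passed the test. All 82 had a negative log2 difference, low minus high iCrit, where 51.7% of the 16819 tested genes did. The median was -0.30 over the large subunit, -0.29 over the small subunit and -0.21 over the paralogues, beside -0.01 over all tested genes. Without high iCrit replicate 7 the paralogue median was -0.08, with 5 of 6 negative. By limma with Benjamini-Hochberg adjustment over all tested genes 0 of 82 members were called at an adjusted p under 0.05, and percent called over all genes was 0 as well. At an unadjusted p under 0.05, 27 of 45 large subunit genes, 13 of 31 small subunit genes and 0 of 6 paralogues were lower, 40 of 82 in all, beside 4.43% of all tested genes, and 0 members were higher, beside 2.71%. Over all tested genes these calls split into 745 lower and 455 higher, and into 603 and 600 after quantile normalization. In 0 members did every low iCrit gilt lie below every high iCrit gilt, which held for 10 of all tested genes (0.0595%). These members vary together across libraries, so their 82 differences are not 82 independent observations.

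**Figure D3:**
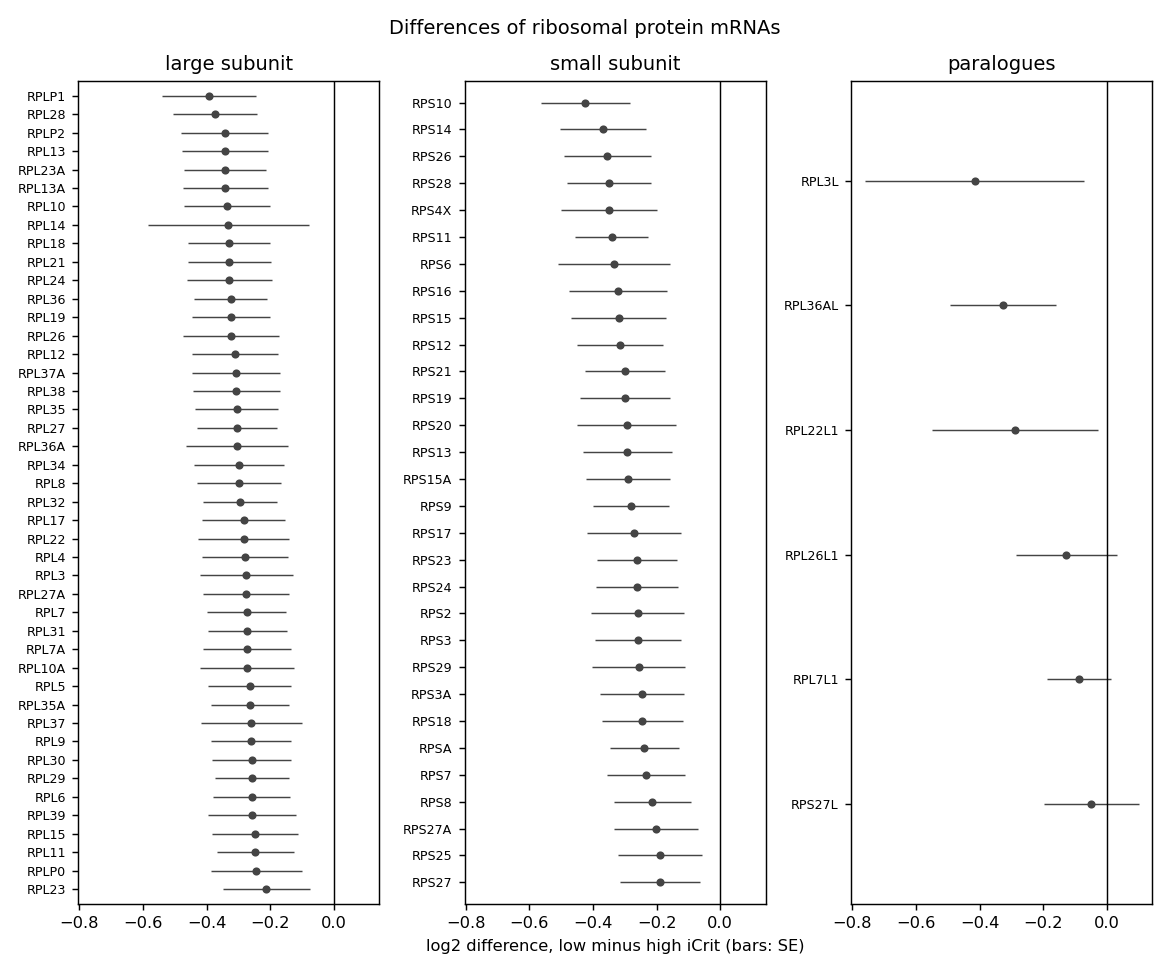
Log2 difference, low minus high iCrit (7 and 8 libraries), of the named large subunit genes, small subunit genes and paralogues, with the SE as bars. All points lie left of 0, from -0.42 (RPS10) to -0.05 (RPS27L).

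The count at an unadjusted p under 0.05 depended on single libraries. The 40 members became 16 and 19 when low iCrit replicate 4 or 3 was left out. They became 23, 24 and 25 when high iCrit replicate 4, 7 or 1 was left out. The median over the 82 members stayed between -0.33 and -0.21 when each library was left out in turn, and the 76 large and small subunit genes kept a negative sign under all 27 alternative settings tried.

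The libraries at the extremes of depth were also at the extremes of the level of these genes. Low iCrit replicates 4 and 3, the lowest in ribosomal protein mRNA, were estimated at 63.4 and 54.0 M reads, the 2 deepest libraries, and high iCrit replicate 7, the highest, was the shallowest at 23.7 M. Among the other 12 libraries depth ran from 29.2 to 44.7 M reads, with no steady order of level by depth. High iCrit replicate 4 at 33.5 M had a mean deviation of 0.28, and low iCrit replicate 2 at 30.9 M had -0.19. High iCrit replicate 3 at 39.6 M had 0.17, and high iCrit replicate 8 at 38.4 M had -0.11. With estimated reads as a covariate the median over the members was -0.20 and 7 of 82 were lower at an unadjusted p under 0.05. Leaving out the shallowest and the deepest library also left out the highest and the lowest level of these genes. The median was then -0.17 and the count 9, and all 76 subunit genes still had a negative difference. The part of depth in the difference was not tested further.

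**Figure D4:**
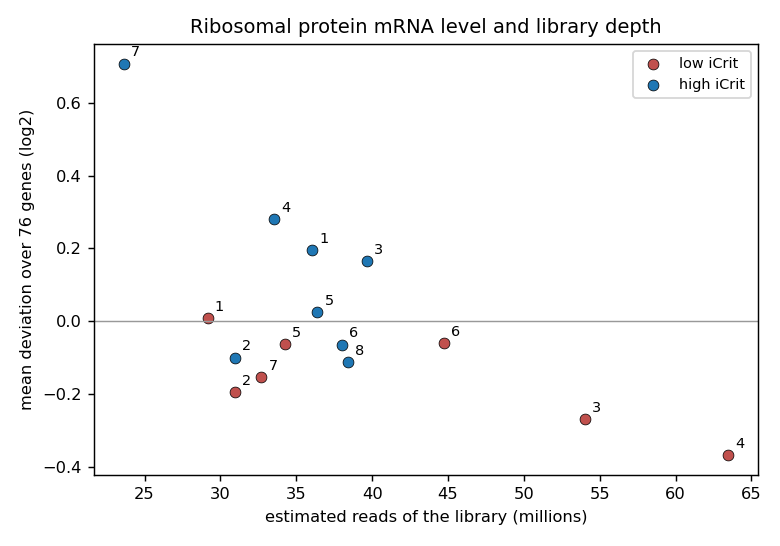
Mean deviation of log2(value + 1) over the 76 large and small subunit genes against estimated reads in M, for 7 low iCrit (red) and 8 high iCrit (blue) libraries, numbered by replicate. Low iCrit replicates 4 and 3 lie at the lower right and high iCrit replicate 7 at the upper left (0.71 at 23.7 M reads).

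With the shared library level taken out, most members differed little between libraries. The median SD of a subunit gene across the 15 libraries was 0.28 on the log2 scale, and 0.09 once the mean of the 76 genes in each library was subtracted. RPL27 (SD 0.04), a large subunit protein, and RPS21 (0.05), of the small subunit, followed that mean most closely in their subunits. RPL14 (0.41) and RPS13 (0.21) departed from it most. Relative to the library mean, the difference between low and high iCrit gilts ranged from -0.13 in RPS10 to 0.10 in RPS27 and RPS25. Subtracting the mean of the 76 genes makes these relative differences average 0. They are the log2 differences shifted by a constant, so only their order and spread can be read.

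RPL14 (chromosome 13, 24691893 to 24698685), a large subunit protein, varied 3.30-fold between libraries on the value scale. Its highest value was in high iCrit replicate 7, where the block as a whole was highest. RPL19, a member with a small relative spread, varied 2.09-fold on the same scale. Relative to the library mean, RPL14 ran from -0.74 in high iCrit replicate 8 to 0.57 in low iCrit replicate 1. Its values ranged from 16776 to 37670 in the low iCrit group (median 20424) and from 13966 to 46024 in the high iCrit group (median 29690). The low iCrit range lay wholly inside the high iCrit range. Its log2 difference of -0.33 ± 0.25 (SE; adjusted p by limma 0.822) was -0.23 when high iCrit replicate 7 was left out and -0.47 when replicate 8 was. RPS13 (chromosome 2, 42030585 to 42033382), of the small subunit, had means of 10908 ± 1993 in the low and 13418 ± 2895 in the high iCrit group and a log2 difference of -0.29 ± 0.14. There 5 of 7 low iCrit gilts lay below every high iCrit gilt, but low iCrit replicate 7, at 14721, lay above the high iCrit mean.

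The relative level of RPL14 was compared with that of each of the other 81 members across the 15 libraries, a comparison added after its spread was seen. Pearson's r passed at an adjusted p under 0.05 for 6 of 81 members, 4 positive and 2 negative, and Spearman's rho for 9, 4 positive and 5 negative. RPL22L1 had the highest r (r = 0.79, permutation p = 0.00072, adjusted p = 0.0284; rho = 0.76, permutation p = 0.0015, adjusted p = 0.0243). RPS6 had the next highest r (r = 0.77, permutation p = 0.0012, adjusted p = 0.0284; rho = 0.78, permutation p = 0.0012, adjusted p = 0.0243). RPL12 (r = 0.76) and RPL7A (r = 0.73) were the other positive ones, with rho of 0.79 and 0.74, permutation p of 0.0014 and 0.002 for r and of 0.0007 and 0.0023 for rho, and adjusted p of 0.0284 and 0.0324 for r. By rho, RPL12 and RPS6 stood above RPL22L1.

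RPL11 ran against RPL14 (r = -0.79, permutation p = 0.00081, adjusted p = 0.0284; rho = -0.79, permutation p = 0.00095, adjusted p = 0.0243), as did RPS24 (r = -0.72, permutation p = 0.0026, adjusted p = 0.0351; rho = -0.71, permutation p = 0.0039, adjusted p = 0.0395). RPS27, RPS7 and RPL22 passed by rho (-0.79, -0.73 and -0.69, permutation p of 0.00058, 0.003 and 0.0054, adjusted p of 0.0243, 0.0347 and 0.0486) but not by r (-0.64, -0.64 and -0.66, adjusted p of 0.0666, 0.0736 and 0.0666). Without high iCrit replicates 1 and 8, the 2 libraries farthest from the median of RPL14, r was 0.76 for RPL22L1, 0.82 for RPS6, 0.69 for RPL12, 0.75 for RPL7A, -0.87 for RPL11 and -0.72 for RPS24, and RPL28, which did not pass over all 15 libraries (r = 0.65, adjusted p = 0.0697), had 0.87. Low and high iCrit gilts were found at both ends. Low iCrit replicates 1 and 6 had the relative RPL14 levels 0.57 and 0.45 and the relative RPL22L1 levels 0.51 and 0.48, while low iCrit replicates 2 and 7 had -0.39 and -0.42 for RPL14 and -0.60 and -0.49 for RPL22L1. High iCrit replicate 8 had -0.74 for RPL14 and -0.59 for RPL22L1. Other libraries followed the relation loosely or went against it. High iCrit replicate 6 had 0.48 for RPL14 and 0.14 for RPL22L1, and high iCrit replicate 1 had -0.48 and -0.16. In high iCrit replicate 2 the signs differed, with 0.19 for RPL14 and -0.40 for RPL22L1. All of these levels share the same subtracted library mean, and how reads that match several ribosomal protein genes or their pseudogenes were assigned was not stated.

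**Figure D5:**
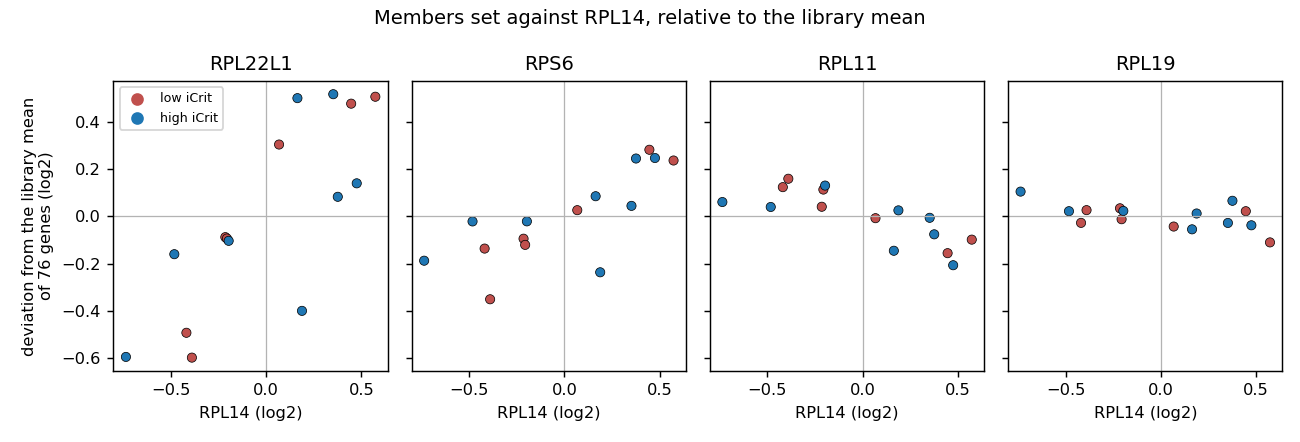
Deviation of RPL22L1, RPS6, RPL11 and RPL19 from the library mean of the 76 subunit genes (log2, vertical) against that of RPL14 (log2, horizontal) in 7 low iCrit (red) and 8 high iCrit (blue) libraries. RPL22L1 and RPS6 run with RPL14 (r = 0.79 and 0.77), and RPL11 runs against it (r = -0.79). RPL19, drawn as a member with a small relative spread, has an SD of 0.05. Its r with RPL14 was -0.54, which did not pass (adjusted permutation p = 0.128).

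The paralogues followed the block less closely, with a median SD of 0.21 around the library mean, against 0.09 over the 76 subunit genes. RPL3L (chromosome 3, 40004907 to 40016702), known as a form of RPL3 made in striated muscle, ranged from 2.18 to 14.5 in the low and from 6.57 to 19.3 in the high iCrit group, near the floor of the scale, with a log2 difference of -0.42 ± 0.34 that was -0.18 when low iCrit replicate 7 was left out. RPL22L1 (chromosome 13, 109495771 to 109499495), which can take the place of RPL22, had means of 2369 ± 821.7 and 2974 ± 1329 in the low and high iCrit groups, with a log2 difference of -0.29 ± 0.26 that was -0.14 without high iCrit replicate 7. RPL36AL (chromosome 1, 179476638 to 179477820), a near twin of RPL36A, had means of 4620 ± 741.2 and 5942 ± 1807, with 7 of 7 low iCrit gilts below the high iCrit mean and a log2 difference of -0.33 ± 0.17.

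RPL26L1 (chromosome 16, 51267492 to 51276692) had means of 1214 ± 169.3 in the low and 1362 ± 436 in the high iCrit group, and RPL7L1 (chromosome 7, 37940549 to 37948258), known from ribosome assembly, 2125 ± 171.4 and 2278 ± 374.6. RPS27L (chromosome 1, 108881330 to 108886334), a target of p53, was the member with the smallest difference, at 1589 ± 327.7 in the low and 1641 ± 343.4 in the high iCrit group. Its log2 difference of -0.05 ± 0.15 (SE; adjusted p by limma 0.963) was 0.03 without high iCrit replicate 7. Of the low iCrit gilts 3 lay below the high iCrit mean of RPS27L. The log2 differences of RPL26L1 and RPL7L1, -0.13 ± 0.16 and -0.09 ± 0.10, were -0.01 and -0.03 without that library.

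The ratio of each paralogue to its namesake was compared between groups, as were the ratios of RPLP1 and RPLP2 to RPLP0, 8 pairs in all, chosen after the values were seen. None passed the exact two-sided permutation test over 6435 splits after adjustment over the 8 pairs. The log2 ratio of RPLP1 to RPLP0 was -0.96 ± 0.17 in the low and -0.81 ± 0.09 in the high iCrit group (SD, exact permutation p = 0.0539, adjusted p = 0.199). That of RPL26L1 to RPL26 was -3.31 ± 0.17 and -3.51 ± 0.21 (exact permutation p = 0.0724, adjusted p = 0.199), and that of RPL7L1 to RPL7 was -3.49 ± 0.08 and -3.68 ± 0.24 (exact permutation p = 0.0747, adjusted p = 0.199). RPL22L1 to RPL22 stood at -1.70 ± 0.59 in the low and -1.70 ± 0.42 in the high iCrit group (exact permutation p = 0.986), with extremes of -2.47 in low iCrit replicate 2 and -0.91 in low iCrit replicate 6. These ratios compare each pair between libraries and, since mRNA lengths differ, do not give the relative amount of the 2 mRNAs. For the 5 pairs other than these 3, RPL22L1 among them, adjusted p ran from 0.228 to 0.986.

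Other genes with TOP mRNAs had lower means as well. All 23 tested genes of 25 listed (translation factors and companions that are not RPL or RPS genes) had a negative log2 difference, with a median of -0.24, and 10 were lower at an unadjusted p under 0.05, or 43.5%, beside 51.7% negative and 4.43% lower over all tested genes. EIF3F (chromosome 9, 1291660 to 1297987), a subunit of the initiation factor eIF3, had means of 5153 ± 587.2 and 6953 ± 1357 in the low and high iCrit groups, a log2 difference of -0.42 ± 0.12, and 6 of 7 low iCrit gilts lay below every high iCrit gilt. FAU, named here for its role and not by a rule on values, encodes a ubiquitin-like protein fused to a small subunit protein and had means of 5322 ± 531.3 and 6679 ± 1266. The limma adjusted p was 0.672 for both EIF3F and FAU.

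Genes that build ribosomes had no common direction. Of 52 tested genes of rRNA synthesis, processing and subunit assembly 24 had a negative and 28 a positive log2 difference, with a median of 0.02, and 2 were lower and 0 higher at an unadjusted p under 0.05. The 2 make up 3.85% of the list, near the 4.43% of all tested genes, and ran from 1 to 4 when each library was left out in turn. They were EIF6 (3782 ± 300.2 in the low, 4562 ± 482.8 in the high iCrit group), which keeps the large subunit from joining too early, and POLR1D (2595 ± 254 and 3136 ± 622.8), a subunit of RNA polymerases I and III. The initiation factors outside the TOP list had 22 of 27 negative differences and a median of -0.09, with 4 lower at an unadjusted p under 0.05 (14.8%, beside 4.43% over all tested genes), among them EIF3G (-0.28 ± 0.11) and EIF2S3 (-0.23 ± 0.09). That count was 2 without high iCrit replicate 3 and also without low iCrit replicate 3.

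Of 27 genes of growth control over ribosomal protein mRNAs 12 had a negative difference (median 0.01), and 4 were lower at an unadjusted p under 0.05 (14.8%, beside 4.43% over all tested genes). The 4 became 1 without high iCrit replicate 3, and 2 without either high or low iCrit replicate 1. RPS19BP1 (chromosome 5, 8735363 to 8738808), which binds RPS19, ranged from 789.1 to 1028 in the low and from 1032 to 1887 in the high iCrit group. The groups did not overlap, but the gap between 1028 and 1032 was narrow. Every low iCrit gilt lay below every high iCrit gilt in 10 of all tested genes (0.0595%), and RPS19BP1 was named for its small p. Its log2 difference was -0.36 ± 0.12 (SE; adjusted p by limma 0.672). RPS6KB2, an S6 kinase, had means of 640.5 ± 66.19 and 774.1 ± 107 in the low and high iCrit groups. MTOR and LARP1, given for their roles, had log2 differences of 0.12 ± 0.15 and 0.05 ± 0.13. Of 17 tested chaperones, importers and modifiers of ribosomal proteins 10 had a negative difference (median -0.09), but 8 did without high iCrit replicate 7, where the median was 0.004. At an unadjusted p under 0.05, 3 were lower (17.6%, beside 4.43%), which were AAMP, BTF3 and NACA. BTF3 and NACA are also on the list of TOP mRNAs and were counted there too. AAMP, a chaperone in yeast and human cells, had a log2 difference of -0.22 ± 0.08, and BTF3, of the nascent chain complex, one of -0.28 ± 0.11. In these 5 lists 0 genes passed the limma test after adjustment.

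The mitochondrial ribosomal protein genes, which serve the separate ribosome of mitochondria, gave 61 of 74 negative differences (82.4%, beside 51.7% of all tested genes) with a median of -0.14, which was -0.09 without high iCrit replicate 7. At an unadjusted p under 0.05, 9 were lower (12.2%, beside 4.43%) and 0 higher, and 0 passed after adjustment. The 9 became 15 and 16 when high iCrit replicate 2 or 6 was left out. Their library mean was also highest in high iCrit replicate 7, at 0.51, and lowest in low iCrit replicate 2, at -0.24. The difference between the cytosolic and mitochondrial sets was not tested.

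The cell makeup of the tissue was looked at through fixed marker lists, since fewer cells of a type and less RNA per cell cannot be told apart in whole tissue. Epithelial markers summed to 99984 to 178441 in the low and 129117 to 189230 in the high iCrit group, and 10 of 11 tested ones had a negative log2 difference (median -0.15), while KRT7 was at the floor in every library. Stromal fibroblast markers summed to 222014 to 620470 in the low and 227341 to 324012 in the high iCrit group, the highest sum being low iCrit replicate 6, with 10 of 12 differences positive (median 0.26). Endothelial markers had 9 of 10 positive differences (median 0.11, sums of 28310 to 53839 and 24589 to 43205 in the low and high iCrit groups), and leukocyte markers 10 of 15 (median 0.12, sums of 4545 to 8526 and 4296 to 11181). Smooth muscle markers had 7 of 10 negative differences (median -0.14, sums of 12026 to 45399 and 12829 to 26829). Erythroid markers had 6 of 7 (median -0.61, sums of 934.3 to 3752 and 908.8 to 4989), and conceptus trophoblast markers 4 of 7 (median -0.20, sums of 257.5 to 581.7 and 278.3 to 3267, the highest being high iCrit replicate 8). Over these lists 0 markers passed the limma test after adjustment. The part of cell makeup in the ribosomal protein result was not tested.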

How the data were processed

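Poly(A) mRNA libraries of 7 low and 8 high iCrit gilts (paired-end 50 bp, with an RNA integrity number from 7.5 up, as the labels' protocols say) were used, and the 15 miRNA libraries were not. The authors deposited normalized values, treated here as signal on a linear scale with a floor of 1. The sources used here do not state the aligner, counting tool, genome build, scaling or strand, nor how reads that match ribosomal protein pseudogenes were handled, so values of near-identical genes are uncertain. Coordinates equalled the Sscrofa11.1 gene table for 27579 of 28224 entries and, with the symbol, for 82 of 84 ribosomal protein entries. No per-sample column was left unmapped (0).

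Depth was estimated from the worth of 1 read, since 91.0% to 93.5% of low values were whole multiples of it within 0.05 steps. No count model was used. Differences are low minus high iCrit on log2(value + 1), tested with limma 3.58.1 (R 4.3.3) with an intensity trend and no covariate over the 16819 genes above 1 in at least 7 libraries, and adjusted by Benjamini-Hochberg. The fit was tested on simulated data in which each gene was drawn independently. That test does not cover counts over genes that vary together, such as these members. Each gilt gave 1 library, and replicate numbers follow the order of records. Tables and plots were made in Python 3.11.15 (pandas 2.3.3, numpy 2.4.6, matplotlib 3.10.9). Correlations used 100000 permutations; they, the ratios of pairs and the spread without high iCrit replicate 7 were added after values were seen.

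The gilts are separate animals, and no batch is given in the labels. Alternatives were other scalings, pseudocounts, filters, weights, reads as covariate and libraries left out. The members and lists were chosen with earlier results of these data known. Named are the 6 largest and 2 smallest differences of each subunit, the largest and smallest SD around the library mean, every paralogue, RPSA, RPS6, RPLP0, RPL5 and RPL11, and the 2 smallest p of each other list. A few results of that rule are not reported here. A part of that rule on levels per coding length could not be applied, as no transcript lengths were used here, so levels of different genes are not compared.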

Additional observations from a re-analysis of the deposited data

Results flagged for a closer look

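A value far from the rest of its group was found in 19 of 86 groups checked (the low and the high iCrit group of each named gene and of the 3 class means). Genes were checked on the value scale and class means on the log2 scale. Chance gives about 1 in 20 for independent groups. The same libraries recur in these groups and most of these genes vary together, so the 19 cannot be set against that rate. In 17 of the 19 the far value was high iCrit replicate 7, the shallowest library, as the highest. The gap to the next value, as a share of the group's range, was 0.614 for RPLP2, 0.532 for RPL23, 0.532 for RPLP0, 0.675 for RPL27 and 0.5675 for the mean over small subunit genes. It was 0.574 for RPS10, 0.56797 for RPS14, 0.673 for RPS26, 0.665 for RPS28, 0.585 for RPS27, 0.535 for RPS25 and 0.710 for RPS21. For the paralogues RPL36AL and RPL26L1 it was 0.558 and 0.673, and for EIF3G, RPS19BP1 and BTF3 it was 0.537, 0.713 and 0.621. Over all 82 members, 41 had this library apart in the same way. The other 2 were RPL7L1 in low iCrit replicate 1 (0.612, with a value of 2469) and AAMP in low iCrit replicate 6 (0.598, with a value of 3414), both the highest of the low iCrit group.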

How the results depend on the processing

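limma called 0 genes after adjustment in every one of the 27 alternatives. The counts at an unadjusted p under 0.05 moved by over 1.5 times in several. With array quality weights they were 65 for all members, 24 for the small subunit, 1 for the paralogues and 16 for mitochondrial ribosomal protein genes. With estimated reads as covariate they were 7 for all members, 3 for the large and 4 for the small subunit, and after quantile normalization 22, 14 and 8. Without the shallowest and the deepest library they were 9, 3 and 6, with 12 for the other genes of ribosome supply and 481 for all tested genes. Without high iCrit replicates 7 and 8 and low iCrit replicate 2 they were 8 for the small subunit and 5 for the mitochondrial genes. When each library was left out in turn, the counts ran from 16 to 56 for all members, from 10 to 36 for the large subunit, from 6 to 21 for the small subunit, from 0 to 1 for the paralogues, from 8 to 16 for the mitochondrial genes, from 12 to 24 for the other genes and from 563 to 947 for all tested genes. The medians of the 6 gene groups moved by less than the SD between libraries, between -0.33 and -0.21 for the large and -0.33 and -0.20 for the small subunit over the libraries left out in turn. RPS27L reversed to 0.079 with estimated reads as covariate and to 0.090 without the shallowest and deepest library, and ran from -0.11 to 0.028 over the libraries left out in turn, above 0 for high iCrit replicate 7 and for low iCrit replicates 4 and 6. RPL26L1 reversed to 0.042 without high iCrit replicates 7 and 8 and low iCrit replicate 2 and to 0.029 without the shallowest and deepest library, and ran from -0.19 to -0.005 over the libraries left out in turn. The causes were not tested. The median of all genes was -0.010 as reported, 0.012 after median centring and 0.006 after quantile normalization. No paired analysis was possible because the 2 groups are different animals, whose numbers only follow the order of records.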
